A study of Mus musculus with 21 samples.

Results

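The imprinted growth genes are 10 mouse genes known for parent-of-origin expression and for roles in growth: Igf2, Dlk1, Grb10, Peg3, Plagl1, Ndn, Mest, Peg10, Meg3 and H19. They were chosen by gene symbol, with earlier results of these data known, from 24322 symbols, and all 10 were listed in each of the 21 libraries. The libraries were made from polyadenylated RNA of GFP-positive cells, sorted by flow cytometry from C57BL/6 mice that carry a Nestin-EGFP reporter, which marks neural stem and progenitor cells. Every mother was dosed by mouth on embryonic days 12, 13 and 14, either with valproic acid (VPA, an antiepileptic drug and histone deacetylase inhibitor) at 300.0 mg/kg/day or with methylcellulose, the control. Offspring exposed to VPA and to methylcellulose were compared at 3 ages: embryonic day 15 (E15), postnatal day 5 (P5) and 12 weeks. A seventh group, at 12 weeks, had been exposed to VPA and then had voluntary exercise (VPA+Run), and no group ran without VPA. Each of the 7 groups had 3 libraries, called rep1 to rep3. The labels do not say that these came from separate litters or animals, so p-values measure the spread between libraries, which may be technical. The E15 cells came from forebrain and the later ones from the dentate gyrus of the hippocampus, so age and region cannot be told apart between E15 and P5.

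An imprinted gene is read mainly from the copy inherited from one parent, through DNA methylation set in the egg or sperm and kept in the embryo by dedicated zinc finger and methylation proteins. Imprinted genes lie in clusters, and several of them set the supply of growth factors or the balance between stem cell renewal and differentiation in the brain. In the mouse brain Igf2 is read from both parental copies in the choroid plexus and the meninges, which secrete it. The values here sum both copies of a gene, so imprinting itself was not measured. In bulk samples such as these, fewer cells of a type and less RNA per cell cannot be told apart.

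Promoter windows from 250 bases before to 50 bases after a transcription start were taken from RefSeq (GRCm38.p6, the assembly also called mm10) for the 8 members that had an entry, 15 windows in all. Each was searched on both strands for 4 motifs: the cyclic AMP response element TGACGTCA, a palindrome that counts once for both strands, the TATA box as TATAAA, the CCAAT box by its own letters and the GC box as GGGCGG. The response element was found in 2 of the 15 windows, those of Peg3 and Meg3 shown here, and in 588 of all 32851 RefSeq promoter windows (1.79%). The TATA box was found in 1 of the 15 (13.6% of all windows), the CCAAT box in 3 (37.4%) and the GC box in 8 (35.7%), and no match overlapped one of another motif. The windows of Peg3 and Meg3 are shown, a choice made after the search, because the response element is the rarest of the 4 motifs over all windows. Capitals mark the element, which begins 178 bases before the Peg3 start and 57 bases before the Meg3 start. The Peg3 window also holds the annotated start of the neighbouring gene Usp29, at position 6730578 on the opposite strand. A match describes letters and is not a binding site.
Peg3 promoter, chr7:6730370-6730669, minus strand: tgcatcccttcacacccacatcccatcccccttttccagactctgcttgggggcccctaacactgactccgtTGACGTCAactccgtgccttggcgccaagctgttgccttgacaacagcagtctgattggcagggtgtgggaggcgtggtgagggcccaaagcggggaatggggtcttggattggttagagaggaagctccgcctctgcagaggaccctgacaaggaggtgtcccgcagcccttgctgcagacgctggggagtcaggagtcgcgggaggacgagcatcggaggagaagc
Meg3 promoter, chr12:109540746-109541045, plus strand: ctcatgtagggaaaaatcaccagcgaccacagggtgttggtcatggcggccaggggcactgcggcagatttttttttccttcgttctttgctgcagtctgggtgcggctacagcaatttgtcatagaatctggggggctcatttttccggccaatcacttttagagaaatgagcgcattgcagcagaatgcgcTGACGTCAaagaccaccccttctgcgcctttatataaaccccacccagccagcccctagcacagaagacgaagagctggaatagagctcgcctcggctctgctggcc

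The noncoding members also carry microRNA hairpins, and these have symbols of their own in the tables. Mature sequences from RefSeq (GRCm38.p6) are shown for the hairpins in exons of Meg3 and H19 that the later paragraphs give values for, with the seed, bases 2 to 8, in capitals. No seed is shared among them.
mmu-miR-1906, chr12:109544588-109544609, plus strand, in a Meg3 exon: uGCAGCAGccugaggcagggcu
mmu-miR-770-5p, chr12:109563710-109563731, plus strand, in a Meg3 exon: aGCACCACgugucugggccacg
mmu-miR-770-3p, chr12:109563744-109563765, plus strand, in a Meg3 exon: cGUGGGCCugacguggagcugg
mmu-miR-675-5p, chr7:142577112-142577133, minus strand, in an H19 exon: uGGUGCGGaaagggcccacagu
mmu-miR-675-3p, chr7:142577078-142577099, minus strand, in an H19 exon: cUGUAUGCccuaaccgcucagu

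The tables give FPKM, the number of fragments scaled by transcript length and by the total of mapped fragments, with no read counts, so depth was unknown. Between 16116 and 16734 symbols were above 0 in the E15 libraries, 17251 to 17601 at P5 and 12019 to 15210 at 12 weeks. Within groups, the SD of a gene on the log2(FPKM + 1) scale had a median of 0.09 to 0.12 at E15 and P5 and of 0.36 to 0.53 in the 12-week groups. One library stood apart at E15. VPA rep3 had a summed level of 11235 FPKM over 9 choroid plexus markers, against 38.6 and 67.7 FPKM in the other VPA libraries and 13.8 to 157 FPKM in control libraries, and results at E15 are given with and without it where it matters. The neural stem cell markers were present in every group, with summed levels of 488 to 658 FPKM at E15, 2559 to 3086 FPKM at P5 and 892 to 1906 FPKM at 12 weeks, and neuron markers summed to 889 to 3576 FPKM. Pericyte markers summed to 707 to 2412 FPKM in the 12-week groups, against 15.1 to 333 FPKM at the earlier ages. At 12 weeks VPA+Run rep3 also stood apart. It had the fewest symbols above 0, at 12019, and the highest column sum, at 574594 FPKM. Its log2(FPKM + 1) values correlated at 0.897 and 0.886 with the other VPA+Run libraries, against at least 0.93 within every other pair of a group.

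The members differed widely in level and in how level differed between groups. Group means were 95.2 to 164 FPKM for Ndn, 34.4 to 214 FPKM for Meg3 and 23.9 to 55.8 FPKM for Mest, and the order of these 3 differed between groups. Dlk1 did not exceed 1.37 FPKM in any library. Plagl1, Grb10, Meg3, Dlk1 and Ndn had their highest means in the E15 groups. Igf2 had its highest means in VPA+Run and control libraries at 12 weeks, and H19 had group means of 5.19 to 6.69 FPKM at E15 and P5 and at most 1.5 FPKM in any 12-week library. When the 7 groups were ranked by mean, each group's range overlapped that of the next for Peg3 and Meg3. The steps without overlap were from VPA to control at E15 for Ndn and Dlk1, from control E15 to control P5 for Grb10, from VPA E15 to VPA+Run for Plagl1 and from control E15 to control 12 weeks for H19. Further such steps were from control P5 to VPA P5 for Peg10, from control P5 to control E15 for Igf2, from VPA P5 to VPA+Run for Grb10, from VPA+Run to VPA at 12 weeks for Mest and from control P5 to VPA 12 weeks for Dlk1.

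**Figure D1:**
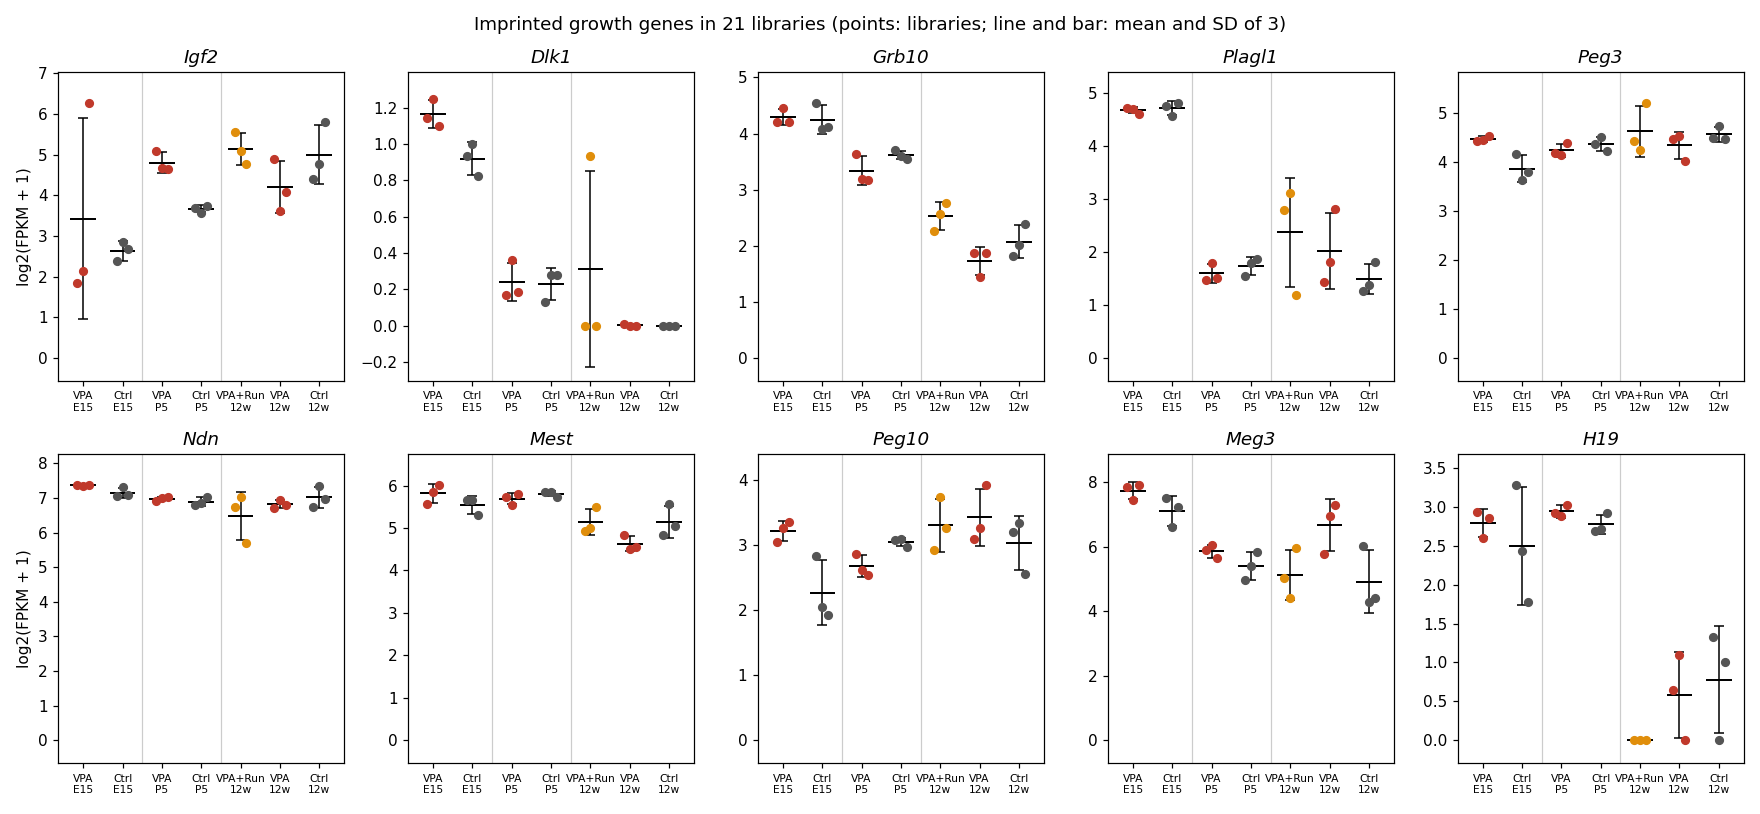
Levels of the 10 imprinted growth genes as log2(FPKM + 1), 1 point per library, with the mean and SD of 3 libraries per group, at E15, P5 and 12 weeks. Igf2 in the VPA group at E15 spreads from 2.61 to 76.8 FPKM, Plagl1 is above 22 FPKM in all E15 libraries and at most 7.70 FPKM later, and H19 is at 0 in all VPA+Run libraries.

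The first question was whether exposure to VPA altered the members at each age, tested with limma on log2(FPKM + 1) with Benjamini-Hochberg adjustment over all genes and a threshold of 0.05. At E15 none of the 10 members passed, as against 0.0405% of 12345 genes. In 9 of the 10 the log2 fold change was above 0, with a median of 0.29, while 47.4% of all genes were above 0 and their median was -0.01. Igf2 was among these 9, and its log2 fold change was -0.64 without VPA rep3. In 4 members, Peg10, Peg3, Ndn and Dlk1, every VPA library was above every control library at E15, and 8.19% of all genes showed that pattern. At P5 only Igf2 passed among 9 members tested, against 2.24% of 13328 genes in either direction and 0.9% higher, and Dlk1 was below the filter of 1 FPKM in 3 libraries. Of those 9 members, 4 were higher in VPA libraries (49.1% of all genes), the median was -0.12, and the groups did not overlap for Igf2 and Peg10, against 29.4% of all genes.

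At 12 weeks none of the 9 members tested passed in any comparison, and limma called 0 of 13847 genes in each (0%). Unadjusted p was under 0.05 for 885 genes between VPA and control libraries, for 1566 between VPA+Run and VPA libraries and for 1074 between VPA+Run and control libraries. With a single estimate of spread over all 21 libraries, 533, 1698 and 886 genes were called in these comparisons, among them Meg3 in the first, Meg3 and Grb10 in the second and no member in the third. That estimate takes in the E15 and P5 libraries, whose genes had a median SD of 0.09 to 0.12, against 0.36 to 0.53 at 12 weeks. It can therefore understate the spread at 12 weeks. Between VPA and control libraries 3 of 9 members were higher (49.3% of all genes), with a median log2 fold change of -0.20 against -0.01 for all genes, and only Mest did not overlap, being lower (7.63% of all genes). Between VPA+Run and VPA libraries 5 of 9 were higher (45.8% of all genes), with a median of 0.29 against -0.05, and Grb10 and Mest did not overlap, being higher (6.98% of all genes). Between VPA+Run and control libraries 6 of 9 were higher (44.1% of all genes), with a median of 0.14 against -0.07, and no member was free of overlap (13.1% of all genes). The 3 comparisons share libraries and are not independent.

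**Figure D2:**
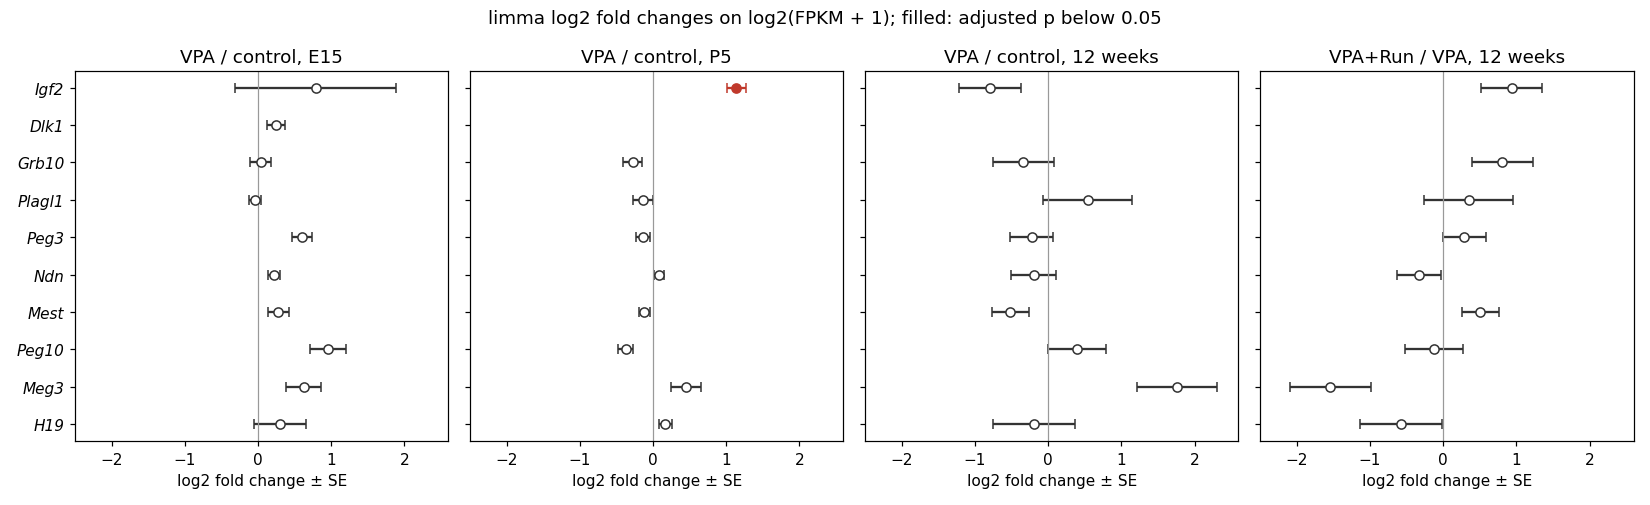
Log2 fold changes of the members on the log2(FPKM + 1) scale with their standard errors from limma, for VPA over control at each age and VPA+Run over VPA at 12 weeks. The filled point, Igf2 at P5, is the single member value with an adjusted p below 0.05, and the widest bar at E15 is that of Igf2.

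Igf2 (ENSMUSG00000048583.16, chr7:142650766-142666816, minus strand) encodes insulin-like growth factor 2, a secreted growth factor. At P5 it was 33.3, 24.6 and 23.9 FPKM in VPA libraries, against 11.9, 10.9 and 12.4 FPKM in control libraries. Every VPA library was well above the highest control library, and the groups did not overlap. Igf2 rose in the P5 dentate gyrus, with a mean of 27.3 ± 5.25 FPKM in VPA libraries and 11.7 ± 0.752 FPKM in control libraries (SD, n = 3 each), 2.33-fold higher (log2 fold change 1.14 ± 0.13 SE, limma adjusted p = 0.0145). The adjusted p was 0.0629 without control rep1, 0.0839 without control rep2, 0.0513 with no filter on low values and 1 when the spread was estimated over all 21 libraries, in which Igf2 at E15 varied widely.

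Markers of other cell types moved with Igf2 at P5. Pericyte markers summed to 187 to 333 FPKM in VPA and 126 to 144 FPKM in control libraries. All 10 tested were higher in VPA and 3 passed the threshold, against 0.9% of all genes that passed and were higher. Fibroblast and meningeal markers summed to 70.3 to 99.9 FPKM in VPA and 47.1 to 64.0 FPKM in control libraries. All 8 tested were higher and 3 passed. This list shares Pdgfra with the oligodendrocyte lineage markers, and its collagen genes were a minor part of the sum. Col1a2, for example, was 4.75 to 5.43 FPKM in VPA and 1.68 to 2.71 FPKM in control libraries. Microglial markers summed to 42.0 to 61.7 FPKM in VPA and 30.7 to 39.3 FPKM in control libraries, and endothelial markers to 46.1 to 50.1 and 36.3 to 44.8 FPKM in the same order, with none of 9 and of 3 tested past the threshold. These 4 sums were higher in all VPA libraries than in all control libraries. Most of the endothelial sum came from Slco1c1, a thyroid hormone transporter gene, whose groups overlapped at 32.0 to 34.2 FPKM in VPA and 27.3 to 38.8 FPKM in control libraries, while Cldn5, a tight junction gene, was 4.68 to 6.63 FPKM in VPA and 1.34 to 3.497 FPKM in control libraries. Erythroid markers lay the other way, with sums of 92.7 to 397 FPKM in VPA and 727 to 1033 FPKM in control libraries. Over 4 tested the median log2 fold change was -1.99, and 2 of them passed the threshold, both lower in VPA. Of all 13328 genes, 178 passed and were lower. The part of these cells in the Igf2 result was not tested. Choroid plexus markers overlapped, at 29.9 to 91.5 FPKM in VPA and 35.9 to 62.2 FPKM in control libraries, and 0 of 3 tested passed. Neural stem cell markers summed to 2559 to 2655 FPKM in VPA and 2683 to 3086 FPKM in control libraries. Past the threshold were 3 of 12, all lower in VPA, against the same 178 of 13328 genes.

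At E15 Igf2 was 2.61, 3.41 and 76.8 FPKM in VPA libraries, against 4.18, 6.22 and 5.44 FPKM in control libraries. A single VPA library, rep3, was 12.4-fold above the next highest library, while the other pair lay below all controls. The log2 fold change was 0.79 ± 1.10 (limma adjusted p = 0.803) with rep3 and -0.64 without it (adjusted p = 0.34), so the direction rests on that library. The same library held 9662 FPKM of Ttr, the transthyretin gene of the choroid plexus, against 29.7 and 56.1 FPKM in the other VPA libraries and 8.75 to 131 FPKM in controls. It also held 258 FPKM of Igfbp2, a secreted binding protein of IGFs, against 127 and 131 FPKM in the other VPA libraries and 124 to 156 FPKM in controls, and its endothelial markers summed to 30.4 FPKM against at most 5.58 FPKM elsewhere at E15. Of that sum 28.4 FPKM was Slco1c1, which choroid plexus cells are also known to express, and Cldn5, at 0.0848 FPKM, was lower there than in any other E15 library. The part of other cells in the Igf2 value was not tested.

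At 12 weeks Igf2 was 45.8, 33.2 and 26.2 FPKM in VPA+Run, 28.8, 11.2 and 16.1 FPKM in VPA and 20.2, 26.3 and 55.1 FPKM in control libraries. All 3 groups overlapped, with VPA libraries reaching lowest. The log2 fold change was 0.94 ± 0.42 for VPA+Run over VPA (limma adjusted p = 0.439) and -0.80 ± 0.42 for VPA over control (adjusted p = 0.795). The change of the VPA effect from P5 to 12 weeks was -1.93 ± 1.08 and did not pass (adjusted p = 0.566). Endothelial markers summed to 74.4 to 185 FPKM in VPA+Run, 82.1 to 147 FPKM in VPA and 176 to 405 FPKM in control libraries. Choroid plexus markers summed to 57.3, 440 and 694 FPKM in VPA+Run, 98.8 to 196 FPKM in VPA and 55.15 to 110 FPKM in controls. Pericyte markers summed to 707 to 1517, 813 to 1173 and 1109 to 2412 FPKM in VPA+Run, VPA and control libraries. In the same order fibroblast and meningeal markers summed to 138 to 173, 275 to 434 and 182 to 242 FPKM. Of 10 tested fibroblast and meningeal markers, 1 was higher in VPA than in control libraries, and the median log2 fold change was -0.84. The higher one was Pdgfra (1.09), which the list shares with the oligodendrocyte lineage markers, so the higher sum in VPA libraries rests on that gene. The part of these cells in the Igf2 values was not tested. Across all 21 libraries, as deviations from their group means on the log2 scale, Igf2 correlated with the summed endothelial markers at 0.83 and the choroid plexus markers at 0.72, with the fibroblast markers at 0.50 and with the pericyte markers at 0.01. Without VPA E15 rep3, over 20 libraries, these values were 0.19, -0.20, -0.34 and 0.44, so the first 3 rest on that library. All are descriptions of points that share libraries.

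**Figure D3:**
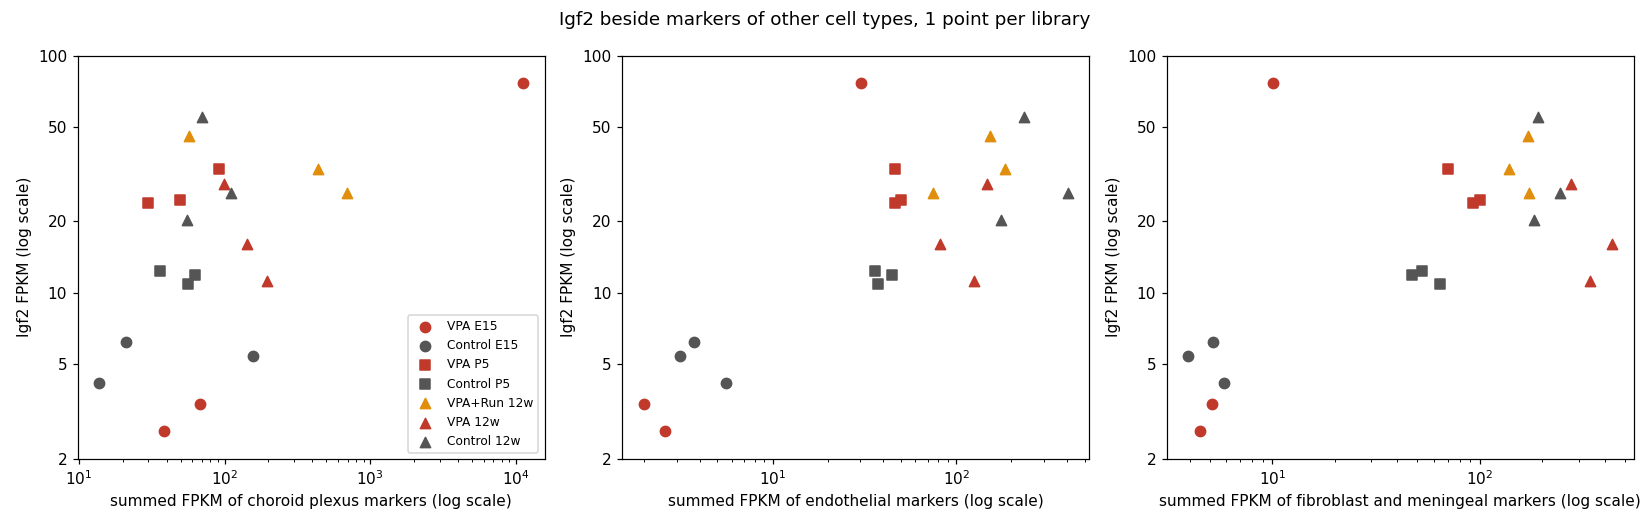
Igf2 level against the summed level of choroid plexus, endothelial, and fibroblast and meningeal markers, 1 point per library and both axes in FPKM on log scales. VPA E15 rep3 is alone at 11235 FPKM of choroid plexus markers and 76.8 FPKM of Igf2. At P5 the VPA libraries lie above control libraries in Igf2 and in the sums of the endothelial and the fibroblast and meningeal markers.

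Among 16 other genes of IGF supply and signalling, none of 13 tested passed at E15, and 1 of 11 passed at P5 (2.24% of all genes). Irs2, which encodes a docking protein that relays insulin and IGF receptor signals, was 9.18, 9.64 and 10.7 FPKM in VPA libraries at P5, against 16.4, 18.99 and 15.1 FPKM in controls. The groups did not overlap and Irs2 fell, with a log2 fold change of -0.71 ± 0.10 (limma adjusted p = 0.0251). The adjusted p was 0.0599 with no filter, 0.0936 without control rep1, 0.0966 without control rep2, 0.0872 without VPA rep2 and 1 with spread estimated over all 21 libraries. Igfbp3, a binding protein gene, was 26.1, 34.1 and 48.8 FPKM in VPA libraries at 12 weeks and 12.1, 20.9 and 12.8 FPKM in controls, and did not overlap (log2 fold change 1.19 ± 0.38, adjusted p = 0.577). In VPA+Run libraries it was 18.0, 7.60 and 17.02 FPKM, below all VPA libraries (-1.34 ± 0.38, adjusted p = 0.239). At E15 the smallest p-values in the list were those of Igf2bp2, an RNA-binding protein gene, with 22.7 FPKM in VPA and 18.1 FPKM in control libraries, and of Igfbp3, with 21.7 and 28.4 FPKM (adjusted p = 0.344 and 0.446).

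Dlk1 (chr12:109452823-109463336, plus strand) encodes a transmembrane and secreted protein of the Delta family, which in mouse neural stem cells is known to act in self-renewal. E15 libraries had 1.21, 1.37 and 1.14 FPKM with VPA, against 0.911, 1.004 and 0.769 FPKM in controls. The groups did not overlap but all values were near 1 FPKM, and the log2 fold change of 0.24 ± 0.13 did not pass (limma adjusted p = 0.529). At P5 the values were 0.125 to 0.284 FPKM in VPA and 0.0931 to 0.215 FPKM in control libraries. At 12 weeks Dlk1 was listed at 0 in all control libraries, in all but 1 VPA library and in all but 1 VPA+Run library, rep2, which had 0.914 FPKM.

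Grb10 (chr11:11930508-12038683, minus strand) encodes an adaptor that binds and dampens the insulin and IGF1 receptors. It was 3.82, 4.94 and 5.81 FPKM in VPA+Run libraries, 2.67, 1.72 and 2.66 FPKM in VPA libraries and 2.51, 3.03 and 4.22 FPKM in control libraries at 12 weeks. Every VPA+Run library was above every VPA library, while both groups overlapped controls. The log2 fold change for VPA+Run over VPA was 0.81 ± 0.41 (limma adjusted p = 0.495). The adjusted p was 0.0218 when the spread was estimated over all 21 libraries, a fit that can understate the spread at 12 weeks. At P5 Grb10 was 11.4, 8.15 and 8.05 FPKM in VPA libraries and 12.0, 11.1 and 10.7 FPKM in control libraries (-0.28 ± 0.13, adjusted p = 0.24). Only VPA rep1 overlapped the controls, and without it the log2 fold change was -0.43 with an adjusted p of 0.0423. At E15 the means were 18.6 FPKM in VPA and 18.2 FPKM in control libraries (adjusted p = 0.935).

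Peg3 (chr7:6703892-6730431, minus strand), shown above with its promoter, encodes a large zinc finger protein that is paternally expressed and abundant in brain. At E15 it was 20.4, 20.7 and 22.2 FPKM in VPA libraries, against 16.9, 11.4 and 12.9 FPKM in control libraries. The VPA libraries were close together and all above controls, 1.54-fold by the means, and the log2 fold change of 0.60 ± 0.13 had an unadjusted p of 0.00296 but did not pass (limma adjusted p = 0.344). Usp29, the paternally expressed neighbour whose start lies 147 bases away on the opposite strand, had 7.90 FPKM in VPA and 7.29 FPKM in control libraries (0.11 ± 0.09, adjusted p = 0.687). Across the 21 libraries the pair correlated at -0.42, a description over 7 groups.

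At P5 Peg3 averaged 17.9 ± 1.69 FPKM in VPA and 19.7 ± 2.09 FPKM in control libraries (SD, n = 3 each; log2 fold change -0.13, limma adjusted p = 0.442). At 12 weeks it was 20.4, 18.0 and 36.2 FPKM in VPA+Run, 21.2, 22.0 and 15.3 FPKM in VPA and 21.5, 25.6 and 21.1 FPKM in control libraries. VPA+Run rep3 was the highest of all 21 libraries, and without it the log2 fold change for VPA+Run over VPA was -0.01 instead of 0.29 ± 0.29 (adjusted p = 0.74 with it). The change of the VPA effect from E15 to P5 was -0.73 ± 0.30 with an unadjusted p of 0.0255, and from E15 to 12 weeks -0.82 ± 0.30. Neither passed (adjusted p = 1 and 0.394).

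Plagl1 (chr10:13060504-13131694, plus strand) encodes a zinc finger transcription factor, also called Zac1, known as a regulator of other imprinted genes in the mouse embryo. E15 levels were 25.4, 24.9 and 23.4 FPKM in VPA and 26.01, 22.6 and 27.3 FPKM in control libraries, with overlap (log2 fold change -0.04 ± 0.08, limma adjusted p = 0.892). At P5 it averaged 2.04 ± 0.375 FPKM in VPA and 2.34 ± 0.381 FPKM in control libraries (SD, n = 3 each; adjusted p = 0.583). At 12 weeks the values were 5.95, 7.70 and 1.29 FPKM in VPA+Run, 1.72, 2.49 and 6.05 FPKM in VPA and 1.40, 1.61 and 2.49 FPKM in control libraries. The exposed groups spread over a wider range than the controls and overlapped them, and no comparison passed (adjusted p = 0.702 to 0.938).

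Ndn (chr7:62346569-62350262, plus strand) encodes necdin, a MAGE family protein that in mouse neurons restrains proliferation. Its E15 levels were 165.0, 161 and 166 FPKM in VPA libraries, against 131, 158 and 134 FPKM in control libraries. All VPA libraries were above the controls by a small margin, and the log2 fold change of 0.22 ± 0.09 did not pass (limma adjusted p = 0.454). Magel2, a MAGE gene whose start lies 30441 bases away, was 4.98, 4.81 and 6.73 FPKM in VPA libraries and 3.11, 1.15 and 1.31 FPKM in controls. These groups did not overlap either, and Magel2 had a log2 fold change of 1.24 ± 0.26 (adjusted p = 0.344). At P5 Ndn averaged 125 ± 4.50 FPKM in VPA and 118 ± 10.5 FPKM in control libraries (SD, n = 3 each; adjusted p = 0.51), and Magel2 was below 0.8 FPKM in every library. At 12 weeks Ndn was 106, 129 and 51.1 FPKM in VPA+Run, 105, 121 and 109.7 FPKM in VPA and 107, 161 and 124 FPKM in control libraries, with the lowest value in VPA+Run rep3. Magel2 was listed at 0 in all 9 libraries at 12 weeks.

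Mest (chr6:30723547-30748465, plus strand) encodes a protein of the alpha/beta hydrolase fold and is paternally expressed. Its annotated gene overlaps Copg2 on the opposite strand, and strand was not stated, so reads of the pair may not be separated. At 12 weeks Mest was 29.6, 30.8 and 44.0 FPKM in VPA+Run libraries, 27.4, 21.8 and 22.5 FPKM in VPA libraries and 27.5, 46.1 and 32.0 FPKM in control libraries. The VPA libraries were the lowest of the 3 groups and did not overlap either, although the margin to the nearest control was small. The log2 fold change was 0.51 ± 0.25 for VPA+Run over VPA (limma adjusted p = 0.485), -0.52 ± 0.25 for VPA over control (adjusted p = 0.774) and -0.01 ± 0.25 for VPA+Run over control (adjusted p = 0.997). At E15 Mest averaged 55.8 ± 8.66 FPKM in VPA and 45.8 ± 6.40 FPKM in control libraries, and at P5 50.8 ± 4.71 and 55.1 ± 2.44 FPKM in the same order (SD, n = 3 each). The change of the VPA effect from E15 to 12 weeks was -0.79 ± 0.26 (unadjusted p = 0.00755, adjusted p = 0.341).

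Peg10 (chr6:4747306-4760517, plus strand) encodes a protein derived from a retrotransposon's Gag and Pol and is paternally expressed. At E15 it was 7.29, 8.63 and 9.20 FPKM in VPA libraries, against 6.14, 3.14 and 2.78 FPKM in control libraries. The groups did not overlap and the means were 2.08-fold apart, with a log2 fold change of 0.96 ± 0.24 and an unadjusted p of 0.00555 that did not pass (limma adjusted p = 0.357). At P5 it was 6.31, 5.13 and 4.84 FPKM in VPA libraries, against 7.44, 7.54 and 6.85 FPKM in control libraries. Here every VPA library was below every control library, with a log2 fold change of -0.37 ± 0.10 (adjusted p = 0.0965, and 0.0426 with a log2 fold change of -0.47 without VPA rep1). The change of the VPA effect from E15 to P5 was -1.33 ± 0.41, with an unadjusted p of 0.00467 that did not pass (adjusted p = 1).

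Sgce, the paternally expressed neighbour of Peg10 whose start lies 99 bases away on the opposite strand, encodes a sarcoglycan. It was 13.8, 13.9 and 15.3 FPKM in VPA libraries and 16.2, 14.2 and 12.7 FPKM in control libraries at E15 and did not share the pattern of Peg10 (log2 fold change 0.00 ± 0.10, limma adjusted p = 0.998). At P5 it averaged 23.6 FPKM in VPA and 23.5 FPKM in control libraries (adjusted p = 0.978). At 12 weeks Peg10 was 6.56, 12.3 and 8.58 FPKM in VPA+Run, 7.57, 8.59 and 14.2 FPKM in VPA and 8.21, 9.16 and 4.87 FPKM in control libraries, and all groups overlapped.

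Meg3 (ENSMUSG00000021268.17, chr12:109541001-109571726, plus strand) is a maternally expressed long noncoding RNA of the Dlk1-Meg3 domain, in which Rian and Mirg, hosts of small nucleolar RNAs and microRNAs, follow it on the same strand. At 12 weeks Meg3 was 31.5, 20.3 and 61.0 FPKM in VPA+Run, 53.6, 123 and 156 FPKM in VPA and 64.2, 18.6 and 20.4 FPKM in control libraries. VPA rep2 and rep3 were above all other libraries at that age, but VPA rep1 lay below control rep1, and the groups overlapped. The log2 fold change was 1.76 ± 0.55 for VPA over control (unadjusted p = 0.00925, limma adjusted p = 0.577) and -1.54 ± 0.55 for VPA+Run over VPA (unadjusted p = 0.0184, adjusted p = 0.337). When the spread was estimated over all 21 libraries, the adjusted p was 0.0444 and 0.0396. That fit takes in the less variable E15 and P5 libraries and can understate the spread at 12 weeks. VPA+Run and control libraries differed by 0.22 ± 0.55 (adjusted p = 0.929).

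Mirg was low at 12 weeks, and VPA libraries lay above both other groups without passing. It was listed at 0 in all 3 VPA+Run libraries, at 2.86, 3.44 and 3.95 FPKM in VPA libraries and at 1.42, 0 and 0 FPKM in control libraries. VPA libraries did not overlap either group, and neither comparison passed (limma adjusted p = 0.183 for VPA+Run against VPA and 0.567 for VPA against control). Of 13847 genes, 1084 were higher without overlap in VPA than in control libraries. In VPA+Run against VPA libraries 1174 were lower without overlap. Rian was 8.39, 21.8 and 8.72 FPKM in VPA+Run, 10.2, 19.5 and 43.1 FPKM in VPA and 12.8, 6.99 and 5.28 FPKM in control libraries. Its groups overlapped (adjusted p = 0.635 and 0.761). As deviations from group means over the 21 libraries, Meg3 correlated with Mirg at 0.77, with Rian at 0.49 and with Dlk1 at -0.36. Oligodendrocyte lineage markers summed to 1043 to 1155 FPKM in VPA+Run, 1601 to 2659 FPKM in VPA and 1322 to 1612 FPKM in control libraries, and neuron markers to 1050 to 1354, 889 to 1085 and 1288 to 1471 FPKM in the same order. The part of these cells in the Meg3 values was not tested.

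At the earlier ages Meg3 was also higher on average in VPA libraries without passing. At E15 it was 229, 173 and 240.2 FPKM in VPA and 179.7, 95.8 and 150.2 FPKM in control libraries (log2 fold change 0.62 ± 0.24, unadjusted p = 0.0359, limma adjusted p = 0.454). At P5 it was 58.4, 64.5 and 48.7 FPKM in VPA and 30.3, 41.2 and 56.2 FPKM in control libraries (0.45 ± 0.21, unadjusted p = 0.068, adjusted p = 0.245). A single library kept the groups from separating at either age, VPA rep2 against control rep1 at E15 and VPA rep3 against control rep3 at P5. Rian averaged 57.8 FPKM in VPA and 51.4 FPKM in control libraries at E15 and 15.3 and 11.0 FPKM at P5 (adjusted p = 0.666 and 0.217). Mirg averaged 5.69 and 4.98 FPKM at E15, with overlap, and at P5 it was 1.26, 1.71 and 1.49 FPKM in VPA and 0.702, 0.729 and 1.23 FPKM in control libraries, without overlap (adjusted p = 0.63 and 0.16).

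Mir1906-1, the hairpin of the microRNA shown above, lies in an exon of 5 of 11 annotated Meg3 transcripts. Its symbol ranged from 0 to 2472 FPKM and was above 0 in 15 of 21 libraries, with the highest value in VPA rep3 at 12 weeks, the library that also held the most Meg3 of that age. These were libraries of polyadenylated RNA, a hairpin is far shorter than most transcripts, and the symbol does not measure the mature form. Mir770, in an exon of 1 of 11 Meg3 transcripts, was above 0 only in VPA E15 rep2, at 10.7 FPKM.

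**Figure D4:**
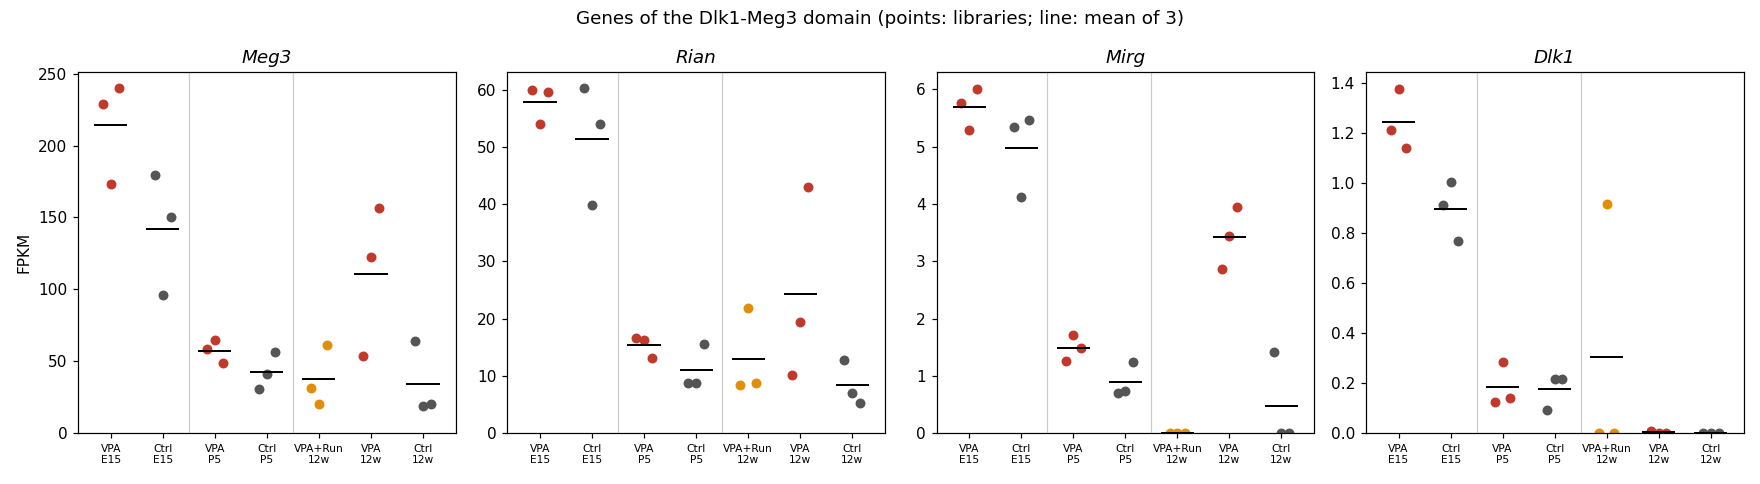
Meg3, Rian, Mirg and Dlk1 in FPKM at E15, P5 and 12 weeks, 1 point per library with the mean of 3. At 12 weeks Mirg is at 0 in all VPA+Run libraries and at 2.86 to 3.95 FPKM in VPA libraries, and Dlk1 is at or near 0 in all 12-week libraries except 1 VPA+Run library.

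H19 (chr7:142575529-142578143, minus strand) is a maternally expressed long noncoding RNA whose start lies 88673 bases from that of Igf2, with which it shares enhancers. At E15 it was 6.66, 5.04 and 6.26 FPKM in VPA and 8.74, 4.41 and 2.41 FPKM in control libraries, and at P5 6.56, 6.35 and 7.17 FPKM in VPA and 5.48, 5.56 and 6.55 FPKM in control libraries. The groups overlapped at both ages, narrowly at P5 (log2 fold change 0.17 ± 0.09, limma adjusted p = 0.311). Unlike Igf2, H19 overlapped between the P5 groups, and the effects on the pair were not tested against each other. At 12 weeks it was listed at 0 in all VPA+Run libraries, at 0.563, 1.14 and 0 FPKM in VPA libraries and at 1.5, 0 and 1.01 FPKM in control libraries. Mir675, the hairpin in an exon of 3 of 7 H19 transcripts whose mature sequences are shown above, was listed at 0 in all 21 libraries, as were Mir483 in Igf2 and Mir335 in Mest.

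The control libraries also show the members at each age, with a change of region between E15 and P5. From E15 forebrain to P5 dentate gyrus 4 of 10 members passed, all of them lower at P5, with the spread estimated over all groups. In the same fit 20.7% of 14662 genes passed in either direction, and 6.33% passed and were lower. With only these control groups fitted, 8033 of 13189 genes passed, 5265 of them higher and 2768 lower at P5. Plagl1 fell most, to 1.90, 2.47 and 2.63 FPKM at P5, against 22.6 to 27.3 FPKM at E15, with a log2 fold change of -2.98 ± 0.39 (limma adjusted p = 2.0e-05). Meg3 fell to 42.6 ± 13.0 FPKM at P5, against 142 ± 42.6 FPKM at E15 (SD, n = 3 each; -1.71 ± 0.46, adjusted p = 0.0123). The adjusted p for Meg3 was 0.0575 without control E15 rep1 and 0.0651 without control P5 rep1. Grb10 fell to 11.3 ± 0.660 FPKM, against 18.2 ± 3.67 FPKM (-0.63 ± 0.21, adjusted p = 0.0419), and Dlk1 to 0.174 ± 0.0702 FPKM, against 0.895 ± 0.118 FPKM (-0.69 ± 0.23, adjusted p = 0.042). Both of these are near the threshold: without any 1 of the 6 control libraries the adjusted p was 0.0589 to 0.197 for Grb10 and 0.079 to 0.14 for Dlk1.

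Igf2, Peg10 and Peg3 had higher means at P5 than at E15 in control libraries. Igf2 was 11.9, 10.9 and 12.4 FPKM at P5 and 4.18, 6.22 and 5.44 FPKM at E15, without overlap, with a log2 fold change of 1.03 ± 0.77 (limma adjusted p = 0.416). The estimate of spread is shared with all groups and includes VPA E15 rep3, and without that library the adjusted p was 0.0402. Peg10 was 7.44, 7.54 and 6.85 FPKM at P5 and 6.14, 3.14 and 2.78 FPKM at E15 (0.78 ± 0.29, adjusted p = 0.0668, and 0.0179 without control E15 rep1). Peg3 averaged 19.7 ± 2.09 FPKM at P5 and 13.8 ± 2.82 FPKM at E15 (SD, n = 3 each; adjusted p = 0.113). Over all alternatives run, the adjusted p ranged from 0.000385 to 0.657 for Igf2 and from 0.0187 to 0.415 for Peg3. Both were higher at P5 in every alternative. Leaving out a control library gave at least 0.503 for Igf2 and 0.0656 for Peg3. That all members past the threshold were lower at P5 therefore depends on the fit. The median of all genes was 0.14 between these ages, 0.05 after median-of-ratios scaling and -0.06 after quantile scaling. Relative to it Plagl1 fell by 3.13, Meg3 by 1.85, Dlk1 by 0.84 and Grb10 by 0.78, and these 4 passed under each scaling. The split of genes past the threshold was 2110 higher and 928 lower as deposited, 1821 and 1310 after median-of-ratios scaling and 1392 and 1278 after quantile scaling.

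Between P5 and 12 weeks, both in dentate gyrus, 3 of 10 members passed in control libraries, all lower at 12 weeks, against 12.6% of genes in either direction and 5.35% lower. H19 fell to 1.5, 0 and 1.01 FPKM at 12 weeks, against 5.48 to 6.55 FPKM at P5 (log2 fold change -2.00 ± 0.37, limma adjusted p = 0.0014). Grb10 fell to 3.26 ± 0.877 FPKM at 12 weeks, against 11.3 ± 0.660 FPKM at P5 (SD, n = 3 each; -1.55 ± 0.21, adjusted p = 9.19e-05). Mest fell to 35.2 ± 9.70 FPKM, against 55.1 ± 2.44 FPKM (-0.66 ± 0.18, adjusted p = 0.0244). The adjusted p for Mest was 0.0544 to 0.0886 without control P5 rep1, rep2 or rep3 or control 12-week rep1 or rep3, and 0.0638 when only the groups compared were fitted. Igf2 was 20.2 to 55.1 FPKM at 12 weeks and 10.9 to 12.4 FPKM at P5, without overlap, and its log2 fold change of 1.33 ± 0.77 did not pass (adjusted p = 0.308, and 0.0162 without VPA E15 rep3). Pericyte markers summed to 1109 to 2412 FPKM at 12 weeks and 126 to 144 FPKM at P5, endothelial markers to 176 to 405 and 36.3 to 44.8 FPKM, and their part in the Igf2 levels was not tested.

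Of 39 other imprinted genes, none passed with VPA at any age. At E15 23 of 30 tested had a log2 fold change above 0 (47.4% of all genes), with a median of 0.11, against -0.01 for all genes. At P5 22 of 29 were above 0 (49.1% of all genes), also with a median of 0.11, against 0.00. At 12 weeks 15 of 29 were above 0 for VPA over control (49.3% of all genes), with a median of 0.01 against -0.01. For VPA+Run over VPA 10 of 29 were above 0 (45.8% of all genes), with a median of -0.16 against -0.05. Besides Magel2, the smallest p at E15 was that of Blcap, with 64.3 FPKM in VPA and 52.5 FPKM in control libraries (limma adjusted p = 0.344). At P5 it was Ube3a, the ubiquitin ligase gene of the Angelman syndrome region, with 19.4 FPKM in VPA and 23.8 FPKM in controls (adjusted p = 0.0758), and Blcap with 54.9 and 48.8 FPKM (adjusted p = 0.0811). At 12 weeks Impact had 36.3 FPKM in VPA and 22.8 FPKM in control libraries and did not overlap (adjusted p = 0.557), and 34.7 FPKM in VPA+Run libraries (adjusted p = 0.612 against control). Mcts2 had 37.6 FPKM in VPA+Run and 21.01 FPKM in VPA libraries (adjusted p = 0.295), and Peg13 36.8 FPKM in VPA+Run and 54.3 FPKM in control libraries (adjusted p = 0.615).

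In control libraries 14 of 33 other imprinted genes passed between E15 and P5, 4 higher and 10 lower at P5, against 20.7% of all genes in either direction and 6.33% lower. Cdkn1c, a cell cycle inhibitor gene, fell to 9.53 FPKM at P5, against 61.8 FPKM at E15 (limma adjusted p = 0.018), Rasgrf1 to 0.234 against 5.10 FPKM (adjusted p = 0.000575) and Rian to 11.0 against 51.4 FPKM (adjusted p = 0.00101). Impact rose to 24.8 FPKM, against 12.8 FPKM (adjusted p = 2.89e-05), and Ano1 and Slc22a3 rose to 2.43 and 1.63 FPKM, against 0.669 and 0.062 FPKM, though neither passed after quantile scaling (adjusted p = 0.155 and 0.0697). Between P5 and 12 weeks 8 of 33 passed, 5 higher and 3 lower, against 12.6% of all genes in either direction and 5.35% lower. Peg12 fell to 0.169 FPKM at 12 weeks, against 3.42 FPKM at P5, and Rasgrf1 rose to 6.85 against 0.234 FPKM (adjusted p = 6.99e-05 and 0.000511). Ano1 and Nap1l5 also rose, to 13.4 and 63.2 FPKM against 2.43 and 18.6 FPKM, and H13 and Inpp5f fell, to 37.8 and 38.8 FPKM against 64.3 and 49.6 FPKM.

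The IGF genes and the keepers of imprints also differed between control groups, which differ in age and, between E15 and P5, in region too. Between E15 and P5 7 of 13 IGF genes passed, 3 higher and 4 lower at P5, against 20.7% of all genes. The RNA-binding protein genes Igf2bp2 and Igf2bp1 fell to 0.877 and 0.643 FPKM at P5, against 18.1 and 8.82 FPKM at E15, and Igfbp3 fell to 4.19 against 28.4 FPKM (limma adjusted p = 4.44e-07, 1.7e-08 and 3.31e-06). Igfbp5 rose to 18.0 against 5.02 FPKM (adjusted p = 0.000951), while Irs1 and Irs2 passed as deposited (adjusted p = 0.0298 and 0.0487) but not after quantile scaling (0.398 and 0.248). Between P5 and 12 weeks 6 of 13 passed, 2 higher and 4 lower, against 12.6% of all genes. Igfbp7 rose to 240.1 FPKM at 12 weeks, against 11.2 FPKM at P5, and Igfbp3 to 15.3 against 4.19 FPKM, while Igf2bp3, Igfbp4, Igfbp2 and Igf2bp1 fell (adjusted p = 0.0102 to 0.0273).

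Of 11 genes that set or keep DNA methylation imprints, 5 passed between control E15 and P5, against 20.7% of all genes. Zfp57 and Trim28, which act together at imprinted regions, fell to 116 and 158 FPKM at P5, against 201 and 215 FPKM at E15 (limma adjusted p = 0.0054 and 0.000688). Uhrf1, a partner of the maintenance methyltransferase, rose to 16.7 FPKM, against 7.65 FPKM (adjusted p = 0.00417). Tet1 and Dnmt3a rose to 7.97 and 15.4 FPKM, against 3.86 and 10.7 FPKM, and did not pass after quantile scaling (adjusted p = 0.312 and 0.362). Between P5 and 12 weeks 2 of 11 passed, against 12.6% of all genes, with Tet3 and Dnmt3a falling to 10.8 and 9.72 FPKM at 12 weeks, against 18.4 and 15.4 FPKM at P5.

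None of these 11 genes passed with VPA at any age, and the pair with the smallest p-values is given for each comparison. At E15 these were Tet1, with 4.38 FPKM in VPA and 3.86 FPKM in control libraries, and Uhrf1, with 9.33 and 7.65 FPKM in the same order (limma adjusted p = 0.613 and 0.644). At P5 Uhrf1 had 12.6 FPKM in VPA and 16.7 FPKM in control libraries and Tet3 16.3 and 18.4 FPKM in the same order, both lower in VPA without overlap (adjusted p = 0.13 and 0.137). At 12 weeks Zfp57 had 113 FPKM in VPA and 80.5 FPKM in control libraries and Zfp445 79.2 and 58.6 FPKM, with overlap (adjusted p = 0.772 and 0.823). Ctcf had 54.0 FPKM in VPA+Run and 36.9 FPKM in VPA libraries, and Uhrf1 18.8 and 14.3 FPKM (adjusted p = 0.379 and 0.652). Trim28 had 112 FPKM in VPA+Run and 133 FPKM in control libraries, and Tet2 12.7 and 9.50 FPKM, both without overlap (adjusted p = 0.659 and 0.718).

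Of the IGF genes at 12 weeks, Igfbp2 had 10.9 FPKM in VPA and 27.0 FPKM in control libraries, with overlap (limma adjusted p = 0.755). Irs2 had 8.88 FPKM in VPA+Run and 16.7 FPKM in VPA libraries (adjusted p = 0.448). Igfbp7 had 144 FPKM in VPA+Run and 240.1 FPKM in control libraries, and Igf1r 10.3 and 13.2 FPKM (adjusted p = 0.647 and 0.768). No listed gene passed for a change of the VPA effect between ages. From E15 to P5 the smallest p-values were those of Magel2 and Asb4, Irs2 and Igfbp3, and Uhrf1 and Tet1 (adjusted p = 0.653 for Magel2 and 1 for the others). From P5 to 12 weeks they were those of Mirg and Ppp1r9a, Irs2 and Igfbp2, and Tet1 and Zfp57 (adjusted p = 0.201 to 0.509). From E15 to 12 weeks they were those of Asb4 and Ano1, Igfbp3 and Igfbp2, and Zfp57 and Ctcf (adjusted p = 0.14 to 0.69).

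The genes whose levels were most like those of a member over the 21 libraries were found by Pearson's r of log2(FPKM + 1) among 10074 genes. Trf, the transferrin gene, was most like Igf2 (0.87), followed by Slc39a12 and Car2, and Trf was also first when deviations from group means were used (0.95, and 0.62 without VPA E15 rep3). Mef2c was most like Plagl1 (0.97), Cd24a most like Grb10 (0.95), Zfp467 most like Ndn (0.94) and Tub most like Meg3 (0.94). Slco5a1 was most like H19 (0.93), Naa40 most like Mest (0.89), Nxn most like Peg3 (0.79) and Pptc7 most like Peg10 (0.75). These libraries span 3 ages, so a shared course over age enters each of these values. Among the members none passed the test for a change of the VPA effect between any pair of ages, as against 0.0955% of 14662 genes from E15 to P5, 0.389% from P5 to 12 weeks and 0.0818% from E15 to 12 weeks.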

How the data were processed

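Values were deposited by the authors as FPKM per gene symbol and library. The headers of the 12-week tables name FPKM, and at E15 and P5 the unit was taken from the same symbols, range and column sums. Tools named in the submitters' processing notes are Bowtie2, TopHat, Cuffdiff and Cufflinks, with the mm10 build. No version of these was given in the sources used here. Strand was not stated. Coordinates are those of GENCODE vM21 (mm10), in which 23185 of 24322 symbols matched a single gene.

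From these values limma 3.58.1 in R 4.3.3 was run on log2(FPKM + 1), with a mean-variance trend, for genes that reached 1 FPKM in 3 or more of the fitted libraries. Adjustment was by Benjamini-Hochberg over all kept genes, with a threshold of 0.05. VPA and control were fitted in 6 libraries at E15 and at P5 and in 9 libraries at 12 weeks. Comparisons between ages used all 21 libraries. A fold change on this scale understates the change of low genes. The script was tested on simulated data.

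The members and gene lists were chosen with earlier results of these data known. All members were named in each comparison, and of the listed imprinted, IGF and imprint maintenance genes every one past the threshold, or the 3 with the largest rise and fall where more than 6 passed, or the 2 with the smallest p where none did. Neighbours, marker genes and the lists of hairpins are given as context. Same-numbered VPA and control libraries at E15 deviated together, though weakly (correlations of 0.106 to 0.161). Their numbers may therefore mark pairs, which the labels do not state. The E15 values given are from fits without pairs, and a block for the replicate number at E15 changed no member's call. No library was a copy of another. Alternatives were a pseudocount of 0.1, no filter, a filter of 5 FPKM, other scalings, a replicate block, no trend, other sets of libraries in the fit and leaving out each library. Fits and correlations without VPA E15 rep3, and fits of only the groups compared at 12 weeks, were added after seeing the data.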

Additional observations from a re-analysis of the deposited data

Results flagged for a closer look

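The VPA effect on Peg10 lay in opposite directions at E15 and P5. Every VPA library was above every control library at E15 (8.37 and 4.02 FPKM on average) and below every control library at P5 (5.43 and 7.28 FPKM). The difference between the effects was -1.33 ± 0.41 on the log2(FPKM + 1) scale, with an unadjusted p of 0.00467, and it did not pass limma's test after adjustment over all genes (adjusted p = 1).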

How the results depend on the processing

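Of 73 member results, 41 kept their direction and their side of the threshold under every alternative run, and 32 did not. Igf2 at P5 passed or missed as described above, and no other member passed with VPA at P5 except Peg10 and Grb10 without VPA P5 rep1. Quantile scaling reversed H19 between control P5 and E15 (-0.16) and Dlk1 between control 12 weeks and P5 (0.056). The cause was not tested.

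Counts of genes past the threshold moved by more than 1.5 times in these cases. With no filter they were 3 for VPA at E15, 36 for VPA at P5, 1 for VPA+Run against VPA and 30 for the change of the VPA effect from E15 to P5. With all 21 libraries fitted they were 3 for VPA at E15, 15 at P5 and 533 at 12 weeks, 1698 for VPA+Run against VPA and 886 for VPA+Run against control. With only the groups compared they were 1 for VPA at 12 weeks, 2 for VPA+Run against VPA, 8033 for control P5 against E15 and 157 for the change from E15 to P5. For VPA+Run against VPA they were 3 with a pseudocount of 0.1, 6 with a filter of 5 FPKM and 9 after quantile scaling. For the change from E15 to 12 weeks they were 7 with a filter of 5 FPKM, 6 with the replicate block and 22 with no trend.

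With the replicate block VPA at P5 gave 70 genes, against 298 without it, Igf2 kept an adjusted p of 0.038, and Irs2 had 0.0673. At P5 same-numbered libraries did not deviate together (-0.04 to 0.06, and not every library was closest to its own number). That gave no sign of pairs but cannot exclude them. The same holds for the 12-week comparisons (-0.05 to 0.03) and for control P5 against E15 (-0.01 to 0.03), where the block gave Grb10 an adjusted p of 0.0562. For control 12 weeks against P5 the correlations were 0.02 to 0.08, with every library closest to its own number. The block changed no other member's call.

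Leaving out 1 library at a time gave ranges that cross 0 on the log2 scale. For VPA at E15 they were -0.64 to 1.57 for Igf2, -0.063 to 0.69 for H19, -0.11 to 0.018 for Plagl1 and -0.046 to 0.19 for Grb10, and at 12 weeks -0.59 to 0.093 for H19. For VPA+Run against VPA they were -0.0060 to 0.48 for Peg3, -0.34 to 0.13 for Peg10, -0.027 to 0.94 for Plagl1 and -0.60 to 0.062 for Ndn. For VPA+Run against control they were -0.23 to 0.26 for Peg3, -0.15 to 0.55 for Igf2, -0.19 to 0.78 for Meg3 and -0.18 to 0.20 for Mest. In control libraries they were -0.085 to 0.67 for H19 between E15 and P5, and between P5 and 12 weeks -0.17 to 0.23 for Peg10 and -0.038 to 0.26 for Ndn. The change of the Igf2 effect from E15 to P5 was -0.44 to 1.78.

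Leaving out 1 library, the counts for VPA ranged from 0 to 11 at E15, from 18 to 543 at P5 and from 0 to 1 in 12-week libraries. They were 0 to 37 for VPA+Run against VPA, 0 to 12 for VPA+Run against control, 1139 to 2288 for control 12 weeks against P5, 8 to 22 for the change of the VPA effect from E15 to P5, 10 to 224 from P5 to 12 weeks and 1 to 64 from E15 to 12 weeks. With 3 libraries a group, unknown depth and a wide spread at 12 weeks, values below about 1 FPKM and the 12-week comparisons are the least precise.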
